A study of Mus musculus with 22 samples.

Results

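Transcript levels of 10 genes of the meiotic chromosome axis and synaptonemal complex (Hormad1, Hormad2, Sycp2, Sycp3, Sycp1, Syce1, Syce2, Smc1b, Stag3 and Rec8) were followed through 22 RNA-seq libraries made from mouse oocytes and early embryos. All but a pair labelled for Dnmt3l were labelled as control or knockout of Setd2, the enzyme that trimethylates lysine 36 of histone H3. The genes were taken by symbol from the 22592 genes of each of 4 expression tables, and all 10 were found in every table. Growing oocytes of postnatal day 7 (P7) measured 20 to 30 µm and were labelled Setd2+/- (controls) or Setd2-/-. Full-grown oocytes (FGO), zygotes and embryos at 48 h came from females 8 weeks old, with the genotype labels Setd2_Con and Setd2_KO. FGO were taken 48 h after PMSG and zygotes 30 h after hCG, whereas the 48 h embryos were 2-cell in the controls and 1-cell in the knockout, from a starting point the labels do not state. In 8-cell embryos made by spindle transfer (ST), the spindle with its chromosomes was exchanged between oocytes of control and Setd2 maternal-null females, also 8 weeks old and given PMSG and hCG, before sperm injection, and the labels Setd2+/- and Setd2-/- do not say which of the joined parts was mutant. Each of these groups had 2 libraries. A further pair of FGO libraries, also from females 8 weeks old and taken 48 h after PMSG, was labelled Dnmt3l_Con and Dnmt3l_KO. Each label had 1 library, and the column names call them merged. The Cre driver, the strain and the number of cells per library are not given in the sources used here.

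During meiotic prophase each pair of sister chromatids is held along a protein axis built on meiosis-specific cohesin, with SYCP2 and SYCP3 as its core and the HORMA-domain proteins HORMAD1 and HORMAD2 on the stretches that have not yet synapsed. Transverse filaments of SYCP1, joined in the middle by central element proteins such as SYCE1 and SYCE2, then zip homologous axes together into the synaptonemal complex, where crossovers mature. In female mice this happens in the fetal ovary, and oocytes that grow after birth are already arrested beyond it, while cohesin loaded before birth goes on holding the chromosomes until the meiotic divisions.

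The 250 bases before the RefSeq start site (GRCm38.p6) are shown for Hormad1 and Sycp3, which were lower in the knockout in FGO, zygotes and 48 h embryos, and for Sycp2, their partner on the axis, which was not lower at any of these stages. The genes to show were chosen after their values were seen. The lines run 5′ to 3′ on the gene's strand, at chr3:95559427-95559676 (plus strand) for Hormad1, chr10:88459337-88459586 (plus strand) for Sycp3 and chr2:178407659-178407908 (minus strand) for Sycp2. Capitals mark the E-box hexamer CACGTG, which reads the same on both strands.
Hormad1: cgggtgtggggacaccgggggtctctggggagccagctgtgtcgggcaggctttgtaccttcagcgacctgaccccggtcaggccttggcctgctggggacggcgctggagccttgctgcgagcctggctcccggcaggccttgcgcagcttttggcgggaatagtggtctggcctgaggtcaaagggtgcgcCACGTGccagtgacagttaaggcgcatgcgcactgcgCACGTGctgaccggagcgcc
Sycp3: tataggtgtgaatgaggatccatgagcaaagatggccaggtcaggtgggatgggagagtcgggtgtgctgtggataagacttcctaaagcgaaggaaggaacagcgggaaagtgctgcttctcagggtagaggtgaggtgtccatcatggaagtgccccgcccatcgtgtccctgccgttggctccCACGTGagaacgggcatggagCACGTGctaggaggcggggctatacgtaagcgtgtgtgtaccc
Sycp2: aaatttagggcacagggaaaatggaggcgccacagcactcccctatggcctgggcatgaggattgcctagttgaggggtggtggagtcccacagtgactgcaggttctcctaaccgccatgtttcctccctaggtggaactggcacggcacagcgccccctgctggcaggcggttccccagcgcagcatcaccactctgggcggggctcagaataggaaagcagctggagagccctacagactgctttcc
Hormad1 holds the hexamer 57 and 20 bases before its start, and Sycp3 holds it 64 and 43 bases before. Sycp2 has no match in this window, nor do Hormad2, Syce1, Syce2, Smc1b and Rec8. Sycp1 has 1 match, at 94 bases, and Stag3 has 1, at 170 bases. Syce1 and Smc1b, without a match, and Sycp1 were also called lower in knockout FGO. Among 27025 mouse promoters of the same length, 1634 (6.05%) hold at least 1 match and 121 (0.448%) hold at least 2. The windows of Hormad1, Sycp3 and Sycp2 contain 19, 12 and 7 CpG dinucleotides, against a median of 6 over all promoters. These matches describe the sequence and were not tested for use by any factor.

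Values are FPKM, in which the authors scaled fragments to transcript length and to the mapped library, so a level is a share of a library and fewer cells of a type cannot be told apart from less RNA per cell. Zygote libraries were estimated at 3.09 to 3.39 M fragments (M for mega), 48 h libraries at 3.24 to 4.68, P7 libraries at 5.13 to 5.89, ST embryo libraries at 6.17 to 7.76, the Dnmt3l pair at 8.13 and 9.77, and FGO libraries at 9.33 to 22.4. Between 8999 and 10554 genes reached 1 FPKM in a library. Setd2 itself lay at 4.35 and 4.75 FPKM in control FGO against 0.927 and 0.968 in the knockout, at 8.85 and 12.1 against 1.30 and 1.73 in zygotes, and at 43.0 and 53.2 against 1.42 and 1.74 at 48 h. Libraries labelled Setd2-/- still held 3.21 and 3.67 FPKM in P7 oocytes (controls 4.33 and 6.68) and 15.4 and 18.1 in ST embryos (controls 17.1 and 18.2). Dnmt3l lay at 25.001 FPKM in the library labelled Dnmt3l_KO and at 31.733 in its control. A value over a whole gene cannot show whether a transcript lacks a deleted exon. All 11 oocyte markers, among them Zp3 and Gdf9, reached 1 FPKM in every P7, FGO and zygote library, with sums from 4288 to 24009 FPKM. The 13 granulosa and cumulus markers summed to at most 2.92 FPKM at P7 and to 36.9 to 41.6 in FGO, where Amh, Foxl2 and Wt1 were at or near 0 in all 4 Setd2 libraries but Cyp19a1 stood at 13.6 to 23.4 FPKM in them, Inha at 14.8 and 15.1 in controls and Fshr at 8.25 and 9.49 in the knockout.

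In the Setd2 controls, Sycp3, Syce1, Smc1b and Sycp1 stood 10.5 to 132 times higher in P7 oocytes than in full-grown ones, while the others differed less, were listed at 0 or went the other way. The P7 control libraries held 575 and 520 FPKM of Sycp3, 235 and 217 of Syce1, 212 and 187 of Syce2, and 199 and 219 of Smc1b. Sycp1 at 29.3 and 39.4 FPKM and Hormad1 at 38.2 and 45.3 formed a middle tier. Sycp2 (5.67 and 8.39), Stag3 (6.99 and 3.12) and Hormad2 (1.30 and 0.739) lay lower, and the ranges of Sycp2 and Stag3 overlapped. Rec8 was listed at 0. Against Setd2 control FGO, in a table normalized separately, the P7 mean was 132 times higher for Syce1, 65.9 for Smc1b, 30.8 for Sycp3, 10.5 for Sycp1, 6.36 for Stag3, 2.21 for Hormad1 and 1.47 for Sycp2, and the ratio was 0.869 for Hormad2. Set against the single Dnmt3l control FGO, the ratio was 198 for Syce1, 98.7 for Hormad1 and 55.6 for Sycp3. There it was 20.5 for Smc1b, 12.2 for Stag3, 5.95 for Sycp1, 1.11 for Sycp2, 0.874 for Hormad2 and 0.349 for Syce2. Syce2 went the other way, 2.95 times higher in control FGO than at P7, and at 568 and 609 FPKM it was the highest of the 10 genes there. These ratios across tables are a description with no test.

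**Figure D1:**
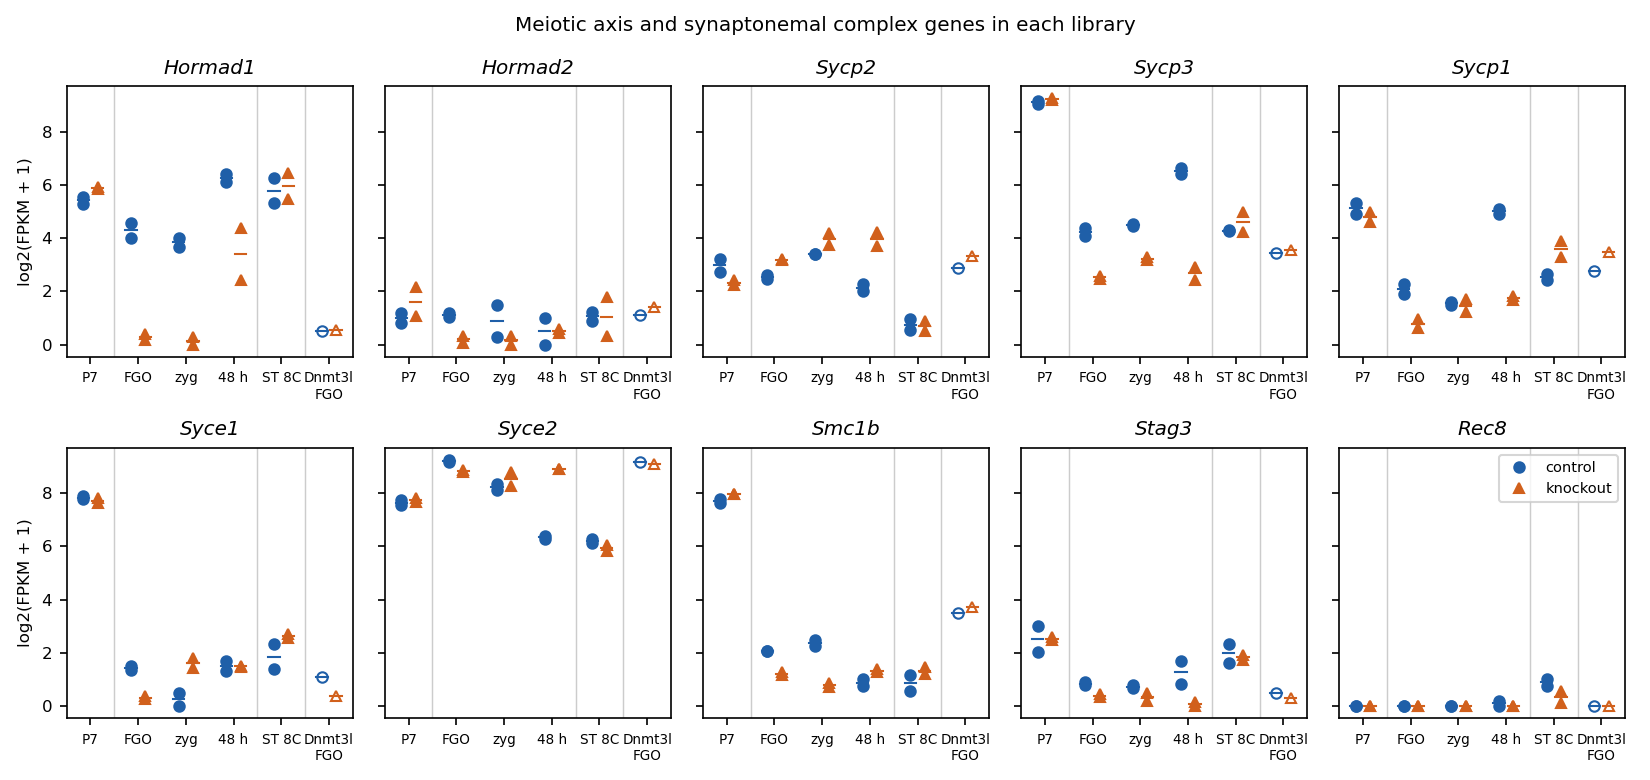
Level of each gene, as log2(FPKM + 1), in every library (blue circles control, orange triangles knockout, short lines the group means, open symbols the Dnmt3l pair with 1 library each, grey lines between tables normalized separately). Sycp3, Syce1 and Smc1b are highest at P7, Syce2 stays high through FGO, and the knockout symbols of Hormad1 and Sycp3 lie below those of controls in FGO, zygotes and 48 h embryos.

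Knockout was compared with control at each stage with limma on log2(FPKM + 1), a scale that understates changes of low genes. A gene was called at an adjusted p below 0.05 over all genes tested, which had to reach 1 FPKM in 2 or more libraries of their table. Changes are given relative to the median of all genes, which was shifted by -0.19 in FGO and 0.43 at 48 h (log2), whereas each p belongs to the unshifted change. No label says that libraries came from separate animals, so a p-value here reflects library-to-library spread alone, and with 2 against 2 an exact permutation test cannot go below 0.33. At P7 none of 9 genes tested was called by limma (1 at an unadjusted p below 0.05), with 0.0834% of all genes called. In FGO 5 of 8 tested genes fell and none rose, against 6.92% of all genes called and 4.89% called lower. In zygotes 3 fell and 1 rose of 8, with 31.6% of all genes called. At 48 h 3 fell and 2 rose of 8, with 73.8% of all genes called, a share that the count of these genes does not exceed. In ST embryos none of 8 was called (1 at an unadjusted p below 0.05), and 0% of 9398 genes were. Stag3 and Rec8 were too low for the test in FGO, zygotes and 48 h embryos, Rec8 also at P7, and Rec8 and Sycp2 in ST embryos.

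**Figure D2:**
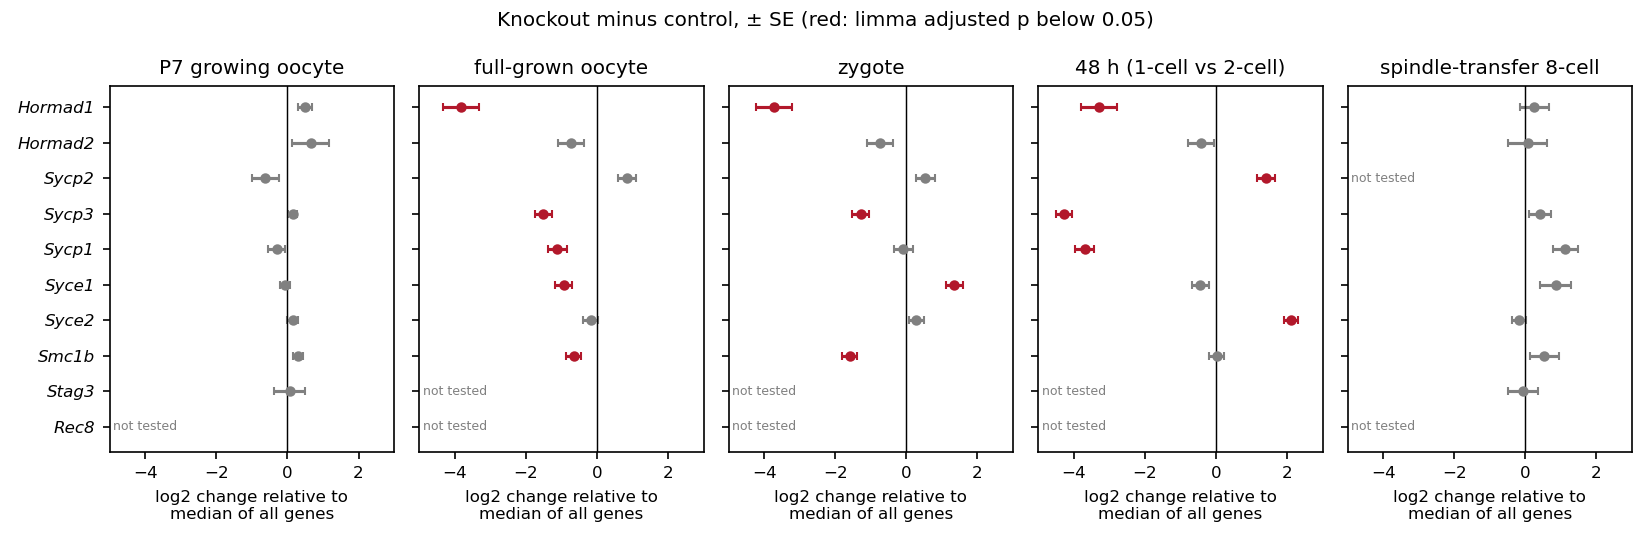
Log2 change, knockout minus control, relative to the median of all genes, with its standard error, for each gene at 5 stages (red where the limma adjusted p is below 0.05, grey otherwise, n = 2 libraries per group). No gene is red at P7 or in ST embryos, Hormad1 and Sycp3 are red and lower at the 3 stages between, and Sycp2 and Syce2 are red and higher at 48 h.

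Hormad1 (chr3:95559677-95587671, plus strand, GRCm38) encodes the axis protein that promotes break formation and recruits the synapsis checkpoint. Its control libraries held 22.8 and 14.9 FPKM in FGO, and the knockout held 0.314 and 0.111. In zygotes the controls stood at 11.8 and 15.1 FPKM and the knockout at 0.203 and at a listed 0, where 1 fragment of this gene is worth about 0.195 and 0.205 FPKM. At 48 h the controls held 67.4 and 83.4 FPKM and the knockout 19.6 and 4.33. No knockout library reached a Setd2 control at these stages, although the 48 h knockout libraries differed widely from each other. The control FGO of the Dnmt3l pair, in a table normalized separately, held only 0.423 FPKM of Hormad1. The reason for that low control value was not tested. Hormad1 fell at all 3 stages, with a relative log2 change of -3.82 in FGO (SE 0.498, limma adjusted p = 0.00265), -3.73 in zygotes (SE 0.498, limma adjusted p = 0.00052) and -3.29 at 48 h (SE 0.498, limma adjusted p = 0.000318).

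Before oocyte growth was complete, that order was reversed. P7 oocytes labelled Setd2-/- held 58.9 and 56.4 FPKM of Hormad1 against 38.2 and 45.3 in controls, a change of 0.50 (SE 0.192) that did not pass (limma adjusted p = 0.568). In ST embryos the pairs overlapped, at 38.4 and 75.0 FPKM against 43.4 and 85.5 in those labelled Setd2-/-, with a change of 0.25 (SE 0.405, limma adjusted p = 0.891). The mean of the P7 knockout was 271 times that of knockout FGO, against 2.21 times in the Setd2 controls and 98.7 times when the P7 controls are set against the single Dnmt3l control. Knockout FGO averaged 0.213 FPKM, so the first of these ratios rests on a value near the floor. This compares tables normalized separately, and the difference was not tested.

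Hormad2 (chr11:4345814-4441105, minus strand), the paralog that marks axes left without a partner and acts in the checkpoint that removes such oocytes, was near the floor of the data throughout. In FGO it measured 1.04 and 1.30 FPKM in controls and 0.0452 and 0.256 in the knockout, without overlap, but the change of -0.73 (SE 0.372) did not pass (limma adjusted p = 0.158). It passed the filter on low values only through the control FGO, so the lower knockout values are no support for a change. Its highest value in any library was 3.42 FPKM, in a P7 library labelled Setd2-/-. No knockout effect on Hormad2 passed at any stage, with limma adjusted p from 0.155 in zygotes to 0.997 in ST embryos, although it was called lower when the FGO libraries were fitted alone (limma adjusted p = 0.0151) and in zygotes without control replicate 1 (limma adjusted p = 0.0291).

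Sycp3 (chr10:88459569-88473236, plus strand) encodes the protein whose fibres compact the axis. Controls and knockout held 15.7 and 19.9 FPKM against 5.01 and 4.49 in FGO, 21.97 and 21.2 against 8.67 and 7.96 in zygotes, and 83.0 and 99.4 against 4.41 and 6.57 at 48 h. The groups did not overlap at these stages. It fell at each of them, with a relative log2 change of -1.51 in FGO (SE 0.235, limma adjusted p = 0.00434), -1.29 in zygotes (SE 0.235, limma adjusted p = 0.00276) and -4.27 at 48 h (SE 0.235, limma adjusted p = 9.7e-08). P7 oocytes held 575 and 520 FPKM in controls and 606 and 576 in the knockout-labelled libraries, a change of 0.15 (SE 0.125) that did not pass (limma adjusted p = 0.889). In the GENCODE annotation of GRCm38, 660 of the 1264 exonic bases of Sycp3 lie opposite exons of Chpt1, an enzyme of phosphatidylcholine synthesis, and these libraries do not record strand, so fragments there cannot be assigned to either gene. Chpt1 was at most 1.34 FPKM in the 4 FGO libraries and at most 7.36 at P7, and at 48 h it had 4.61 and 5.31 FPKM in controls and 0.767 and 1.05 in the knockout. In ST embryos it reached 64.6 to 111 FPKM against 18.0 to 30.2 for Sycp3, so the Sycp3 values there are uncertain.

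Sycp2 (chr2:178345293-178407685, minus strand), which binds SYCP3 in the same axial core, was not lower in the knockout from FGO on. In FGO it measured 5.07 and 4.52 FPKM in controls and 8.05 and 8.17 in the knockout, in zygotes 9.62 and 9.70 against 17.1 and 12.3, and at 48 h 3.83 and 3.02 against 17.9 and 12.1. Every knockout library lay above every control at these stages. Only the 48 h rise, by 1.40 (SE 0.26), passed among them (limma adjusted p = 6.73e-05), and the changes of 0.84 in FGO and 0.53 in zygotes did not (limma adjusted p = 0.152 and 0.135), although FGO passed when its 4 libraries were fitted alone (limma adjusted p = 0.0432). At P7 the knockout-labelled oocytes were the lower ones, at 3.65 and 4.32 FPKM against 5.67 and 8.39, a change of -0.63 (SE 0.383) that did not pass (limma adjusted p = 0.708). ST embryos held less than 1 FPKM in all 4 libraries.

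Sycp1 (chr3:102818499-102936100, minus strand) encodes the transverse filament itself. In FGO it measured 2.71 and 3.86 FPKM in controls and 0.534 and 0.925 in the knockout, and fell by 1.12 (SE 0.27, limma adjusted p = 0.0218). In zygotes the groups overlapped, at 2.03 and 1.80 FPKM against 2.30 and 1.31, and the change was -0.09 (SE 0.27, limma adjusted p = 0.872). Control 2-cell embryos then held 29.3 and 33.1 FPKM and 1-cell knockout embryos 2.21 and 2.51, and Sycp1 fell by 3.69 (SE 0.27, limma adjusted p = 9.65e-07). ST embryos labelled Setd2-/- lay above their controls, at 14.0 and 8.71 FPKM against 5.30 and 4.38, but the change of 1.13 (SE 0.36) did not pass (limma adjusted p = 0.312).

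The central element genes Syce1 and Syce2, whose products hold the transverse filaments together, differed in level and in course. Syce1 (chr7:140777229-140787852, minus strand) stood at 1.86 and 1.56 FPKM in control FGO and 0.204 and 0.289 in the knockout, and fell by 0.93 relative to all genes (SE 0.238, limma adjusted p = 0.0238). In zygotes the order turned, with 0.417 and a listed 0 in controls and 1.69 and 2.46 FPKM in the knockout, a rise of 1.34 (SE 0.238, limma adjusted p = 0.00211). Both groups of zygotes were thus far below the P7 libraries, which held 195 to 235 FPKM in both genotypes. The zygote libraries held an estimated 3.09 to 3.39 M fragments, so their Syce1 values rest on few fragments. At 48 h the groups overlapped, at 2.20 and 1.504 FPKM against 1.84 and 1.80.

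Syce2 (chr8:84872111-84888221, plus strand) was the most abundant of these genes in FGO and zygotes of both genotypes. In 48 h controls Sycp3 and Hormad1 lay near it, with means of 91.2 and 75.4 FPKM against 80.3 for Syce2. Its FGO libraries held 568 and 609 FPKM in controls and 467 and 444 in the knockout, without overlap, and the relative change of -0.18 (SE 0.201) did not pass (limma adjusted p = 0.287). Zygotes held 322 and 275 FPKM in controls and 305 and 440 in the knockout, which overlapped. At 48 h the controls had 76.8 and 83.8 FPKM and the knockout 474 and 478, a rise of 2.12 (SE 0.201, limma adjusted p = 6.38e-07). The 11 oocyte markers moved the same way in that comparison, where all 11 rose and their sums were 243 and 239 FPKM in controls and 17973 and 14660 in the knockout. The part of that difference in the values of Syce2 and Sycp2 was not tested. Developmental stage (2-cell or 1-cell) and genotype cannot be told apart at 48 h.

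Smc1b, Stag3 and Rec8 encode the meiotic forms of the SMC1, STAG and kleisin subunits of cohesin. Smc1b (chr15:85064689-85131964, minus strand) stood at 3.17 FPKM in both control FGO libraries and at 1.24 and 1.41 in the knockout, and fell by 0.66 (SE 0.214, limma adjusted p = 0.0406). In zygotes it measured 3.76 and 4.55 FPKM in controls and 0.623 and 0.807 in the knockout, and fell by 1.60 (SE 0.214, limma adjusted p = 0.000536). At 48 h the order turned, at 1.01 and 0.679 FPKM against 1.61 and 1.43, with a relative change of 0.02 (SE 0.214) that did not pass (limma adjusted p = 0.0742). P7 oocytes held 199 and 219 FPKM in controls and 250 and 248 in knockout-labelled libraries, a change of 0.30 (SE 0.139, limma adjusted p = 0.693).

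Stag3 (chr5:138280240-138312393, plus strand) was higher in every control than in every knockout library of FGO (0.868 and 0.720 FPKM against 0.265 and 0.358), zygotes (0.717 and 0.578 against 0.396 and 0.140) and 48 h embryos (2.27 and 0.765 against 0.0959 and a listed 0), but was too low there to be tested. At P7 it overlapped between genotypes, at 6.99 and 3.12 FPKM against 4.96 and 4.64. Rec8 (chr14:55618037-55625395, plus strand), the kleisin that separase cuts at the meiotic divisions, was listed at 0 in all P7, FGO, zygote and Dnmt3l libraries. A single fragment of Rec8 is worth 0.0205 to 0.148 FPKM in these libraries, and the highest value was 1.04 FPKM, in a control ST embryo library. Protein already loaded on chromosomes is not measured here.

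The mitotic paralogs that can take the places of these subunits were present at all stages. Per length, Smc1a was lower than Smc1b in the P7 controls (19.3 and 28.6 FPKM) and higher than it in the Setd2 controls from FGO (11.2 and 13.4 FPKM) to 48 h (19.0 and 18.2 FPKM). In the control FGO of the Dnmt3l pair Smc1a stood at 5.58 FPKM, below Smc1b at 10.2. Rad21, the kleisin of mitotic cohesin, had 12.2 and 5.79 FPKM at P7, 10.2 and 10.9 in control FGO and 71.9 and 73.5 in control 48 h embryos. Stag2 was at 4.44 and 3.59 FPKM at P7 and 85.1 and 39.2 in control ST embryos, where Stag3 had 4.06 and 2.05. Stag1 stayed between 1.55 and 4.94 FPKM in the control libraries of the Setd2 series. The shared subunit Smc3 fell in knockout FGO, from 27.9 and 28.1 FPKM to 12.03 and 13.5 (unshifted log2 change -1.08, SE 0.19, limma adjusted p = 0.0125), and rose in knockout zygotes, from 8.81 and 7.76 to 39.6 and 35.2 (unshifted log2 change 2.05, SE 0.19, limma adjusted p = 6.63e-05). Smc1a and Stag2 also rose in knockout zygotes, by 0.80 and 0.88 (limma adjusted p = 0.0219 and 0.033).

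**Figure D3:**
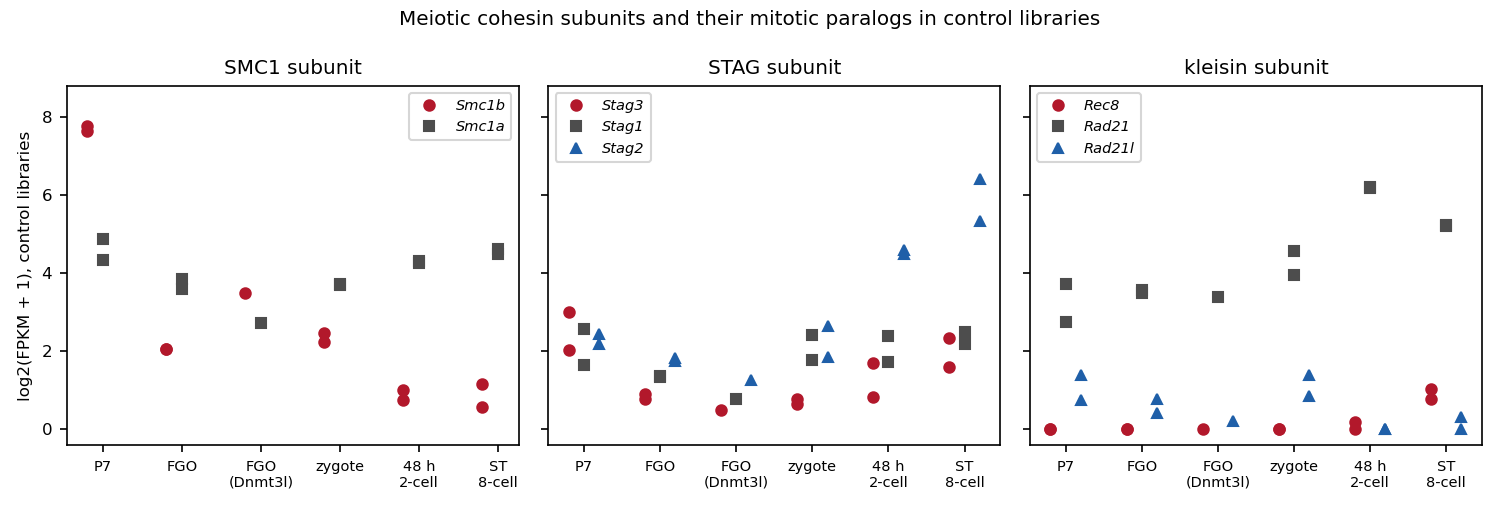
Level of Smc1b, Stag3 and Rec8 (red) and of paralogs of each (grey and blue), as log2(FPKM + 1), in each control library, with tables normalized separately for P7, the Dnmt3l pair and ST embryos. Smc1b lies above Smc1a at P7 (199 and 219 against 19.3 and 28.6 FPKM) and below it in Setd2 control FGO, and Rad21 lies above Rec8 in every library.

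Leaving out 1 FGO library at a time, with the lone library assumed to vary like the other groups, left 1 or 2 of the 5 calls in FGO. Without control replicate 1 or knockout replicate 2 both Hormad1 and Sycp3 were still called, and without control replicate 2 or knockout replicate 1 only Hormad1 was, with Sycp3 at limma adjusted p = 0.0718 and 0.05. Sycp1, Syce1 and Smc1b missed the threshold in each of these fits. All 5 kept their direction. Smc1b also missed it under median-ratio scaling and quantile normalization (limma adjusted p = 0.109 and 0.127), and Syce1 and Smc1b with a pseudocount of 0.1 (limma adjusted p = 0.0745 and 0.0989). The 4 theca and stroma markers summed to 1.66 and 1.94 FPKM in control FGO and 0.534 and 0.783 in the knockout. Of the 7 granulosa markers tested there, Fshr rose while Inha and Cyp11a1 fell, and the sum of all 13 ranged from 36.9 to 39.4 FPKM in controls and 37.0 to 41.6 in the knockout. Inha and Cyp11a1 had passed the filter on low values only through the control FGO, and Fshr only through knockout libraries. The filter thus set the falls and favoured the rise. The part of surrounding cells in the FGO changes was not tested.

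From FGO to zygote, the control embryos changed 3 of the 8 tested genes, with 42.5% of all genes called. Sycp2 rose by 0.94 (SE 0.26, limma adjusted p = 0.0189), and Syce1 and Syce2 fell, with changes of -1.12 and -0.92 (limma adjusted p = 0.00264 and 0.00299). The Sycp2 call was lost without either FGO control library (limma adjusted p = 0.0622 and 0.106) or either zygote control library (limma adjusted p = 0.06 and 0.058). In the knockout 1 gene changed, with 17.7% of all genes called. It was Syce1, which rose by 1.20 (SE 0.238, limma adjusted p = 0.00632), a call lost without knockout FGO replicate 1 (limma adjusted p = 0.0699). Without knockout zygote replicate 2, 4 genes were called in this step, 3 higher and 1 lower.

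From zygote to 48 h, the controls passed from the 1-cell to the 2-cell stage, and 7 of the 8 tested genes changed, with 76.1% of all genes called. The filament gene, the axis genes Hormad1 and Sycp3 and the central element gene Syce1 rose in 2-cell controls, Sycp1 by 3.80 (SE 0.27, limma adjusted p = 4.79e-07), Hormad1 by 2.74 (SE 0.498, limma adjusted p = 0.00099), Sycp3 by 2.36 (SE 0.235, limma adjusted p = 1.2e-05) and Syce1 by 1.59 (SE 0.238, limma adjusted p = 0.000548). Their mean FPKM rose 16.3, 5.60, 4.22 and 8.88 times. Syce2, Smc1b and Sycp2 fell, with changes of -1.54, -1.15 and -0.93 (limma adjusted p = 5.92e-06, 6.51e-05 and 0.000904). Hormad2 did not pass (limma adjusted p = 0.346).

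Knockout embryos, still at 1 cell, changed in 1 of the 8 genes over the same step, with 0.205% of all genes called (25 of 12199). That gene was Hormad1, which went from 0.203 FPKM and a listed 0 to 19.6 and 4.33 FPKM and rose by 3.24 (SE 0.498, limma adjusted p = 0.0344). The call was lost without knockout zygote replicate 1 (limma adjusted p = 0.113), under median-ratio scaling and quantile normalization (limma adjusted p = 0.0535 and 0.0546) and without a filter (limma adjusted p = 0.0852), and the unshifted log2 change was 2.28 without 48 h knockout replicate 1 and 4.23 without replicate 2. Sycp1, at 2.30 and 1.31 FPKM in knockout zygotes and 2.21 and 2.51 at 48 h, was not called (log2 change 0.26, SE 0.27, limma adjusted p = 0.793).

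The difference between stages in the knockout effect was tested directly. Between FGO and zygotes it passed for 1 of 8 genes, with 9.39% of all genes called. That gene was Syce1, lower in knockout FGO and higher in knockout zygotes, with a difference of 2.28 (SE 0.336, limma adjusted p = 0.00226), and 2 genes passed without knockout zygote replicate 1. Syce1 lay at 2.46 FPKM or less in every library of both stages. For Hormad1 the difference was 0.10 (SE 0.704, limma adjusted p = 0.852), with an error that leaves room for a change either way. Between zygotes and 48 h 6 of 8 passed, with 66.2% of all genes called. The effect became more negative for Sycp1 (by -3.55, SE 0.382), Sycp3 (by -2.93, SE 0.333) and Syce1 (by -1.72, SE 0.336), with limma adjusted p = 3.12e-05, 5.42e-05 and 0.00416. It became more positive for Syce2 (1.89, SE 0.284), Smc1b (1.68, SE 0.302) and Sycp2 (0.93, SE 0.368), with limma adjusted p = 4.34e-05, 0.000139 and 0.00938. The Sycp2 call was lost under median-ratio scaling (limma adjusted p = 0.0938). Hormad1 did not pass (unshifted difference 0.85, limma adjusted p = 0.302), but was called higher with a pseudocount of 0.1 (3.27, limma adjusted p = 0.0155) and without 48 h knockout replicate 2 (1.83, limma adjusted p = 0.00467), and the difference was -0.12 without replicate 1. Hormad2 did not pass either and was called higher without zygote control replicate 1 (limma adjusted p = 0.0276). Both effects share the zygote libraries.

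In the Dnmt3l pair, a comparison of 2 libraries with no replicate error, none of the 7 genes that reached 1 FPKM differed by 2-fold or more in FPKM + 1, as did 1.95% of all genes. Sycp1 stood at 5.77 FPKM in the control and 10.3 in the library labelled knockout, Sycp3 at 9.85 and 10.8, Sycp2 at 6.31 and 9.10, Smc1b at 10.2 and 12.3, and Syce2 at 572 and 542. Syce1 had 1.14 and 0.283 FPKM. The 2 kinds of control FGO differed from each other in Hormad1, which measured 0.423 FPKM in the Dnmt3l control (0.476 in the library labelled knockout) and 14.9 and 22.8 in the Setd2 controls, a ratio of means of 44.7. Smc1b differed the other way, at 10.2 FPKM against 3.17 in both Setd2 controls. The tables were normalized separately and the reason for these differences was not tested.

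In knockout FGO every call within the wider lists of meiotic genes was a fall, where 6.92% of all genes were called, 597 of the 844 called genes being lower. Of 10 other complex and crossover genes tested, 3 fell and none rose. These were Tex12, the central element partner of SYCE2 (from 43.2 ± 9.69 to 9.27 ± 0.589 FPKM, SD, n = 2, limma adjusted p = 0.00238), Tex11 (7.12 ± 1.46 to 0.978 ± 0.179, limma adjusted p = 0.00908) and Ccnb1ip1, the crossover regulator HEI10 (20.5 ± 4.07 to 4.56 ± 0.556, limma adjusted p = 0.0139). Of 12 genes of break formation and repair, 4 fell and none rose, namely Tex15 (limma adjusted p = 0.00391), 4930455F23Rik (also known as Brme1, limma adjusted p = 0.0255), the meiotic recombinase gene Dmc1 (limma adjusted p = 0.0261) and Brca2 (limma adjusted p = 0.0273). Dmc1 averaged 1.17 FPKM in control FGO and had passed the filter on low values only through control libraries, which favours a fall. Of 5 genes that tether chromosome ends to the nuclear envelope, Ccdc155 (also known as Kash5) and Sun1 fell (limma adjusted p = 0.0127 and 0.0331). Smc3 was the only 1 of 17 tested genes in a list of other cohesin subunits and cohesin regulators to fall, and none rose. The median unshifted log2 change was -0.51, -0.56, -0.34 and 0.02 for these lists, in the order given, -1.02 for the 8 axis and synaptonemal complex genes tested and -0.19 for all 12199 genes, given as a description.

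In zygotes, with 31.6% of all genes called, there were calls in both directions. Of 10 complex and crossover genes tested, 2 fell, Tex11 and Tex12 (limma adjusted p = 0.000224 and 0.00311), and 1 rose, near the share of all genes. Among the 12 break and repair genes Dmc1, Tex15, 4930455F23Rik and Brca2 fell (limma adjusted p from 0.00125 to 0.0235), and Psmc3ip, a DMC1 cofactor, rose (limma adjusted p = 0.000651). The filter limit given for Dmc1 in FGO holds here too. Of the 5 chromosome end genes Ccdc79 (also known as Terb1) fell and Ccdc155 rose (limma adjusted p = 0.00207 and 0.00387). Of the cohesin list 3 rose (Smc3, Smc1a and Stag2) and 2 fell, Nipbl and Pttg1 (limma adjusted p = 0.00638 and 0.0167), 5 of 17 and so near the share of all genes. Oocyte markers differed here as well, with 7 of 11 higher and 1 lower in the knockout and sums of 6908 and 6555 FPKM in controls against 16135 and 17254. Granulosa markers summed to 18.9 and 25.8 FPKM in controls and 34.1 and 31.5 in the knockout, with 3 of 7 higher (Fshr, Nr5a2 and Kitl). Cyp19a1 alone held 13.1 to 19.7 FPKM in controls and 15.1 to 20.1 in the knockout. Amh, Amhr2 and Inha were listed at 0 in all zygote libraries. Nr5a2 and Amhr2 averaged 35.4 and 34.3 FPKM in 2-cell controls at 48 h, so these sums do not measure granulosa cells alone. Without the knockout libraries Fshr and Kitl would not have passed the filter on low values, which favours a rise. The part of these markers in the zygote changes was not tested.

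At the other stages the lists gave few or many calls along with the rest of the genes. In P7 oocytes limma called none of 18 cohesin, 13 complex and crossover, 14 break and 6 chromosome end genes, with 2, 1, 2 and 0 at an unadjusted p below 0.05. ST embryos had none called of 17, 9, 7 and 3, with 1, 4, 0 and 0 at an unadjusted p below 0.05. Tex15, low in knockout FGO, had 59.4 and 65.7 FPKM in P7 controls and 76.8 and 73.8 in knockout-labelled P7 libraries. At 48 h 7 complex and crossover genes fell and 3 rose of 10, 7 break genes fell and 4 rose of 12, 3 chromosome end genes fell and 2 rose of 5, and 7 cohesin genes fell and 2 rose of 17, with 73.8% of all genes called. Among the falls, Syce3, Msh5, Mei1, Gm960 and Spdya had passed the filter on low values only through the 48 h controls, so that their fall was set by the filter. Without them 5 complex and crossover genes fell and 3 rose of 8, 5 break genes fell and 4 rose of 10, and 2 chromosome end genes fell and 2 rose of 4. The smallest adjusted p of each list at 48 h belonged to a fall, of Trip13, the ATPase that removes HORMA-domain proteins from the axis (68.3 ± 2.7 to 5.54 ± 0.957 FPKM, SD, n = 2, limma adjusted p = 1.65e-07), of Brca2 (limma adjusted p = 1.68e-06), of Sun1 (limma adjusted p = 9.36e-05) and of the cohesin regulator Pds5a (limma adjusted p = 5.47e-06).

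**Figure D4:**
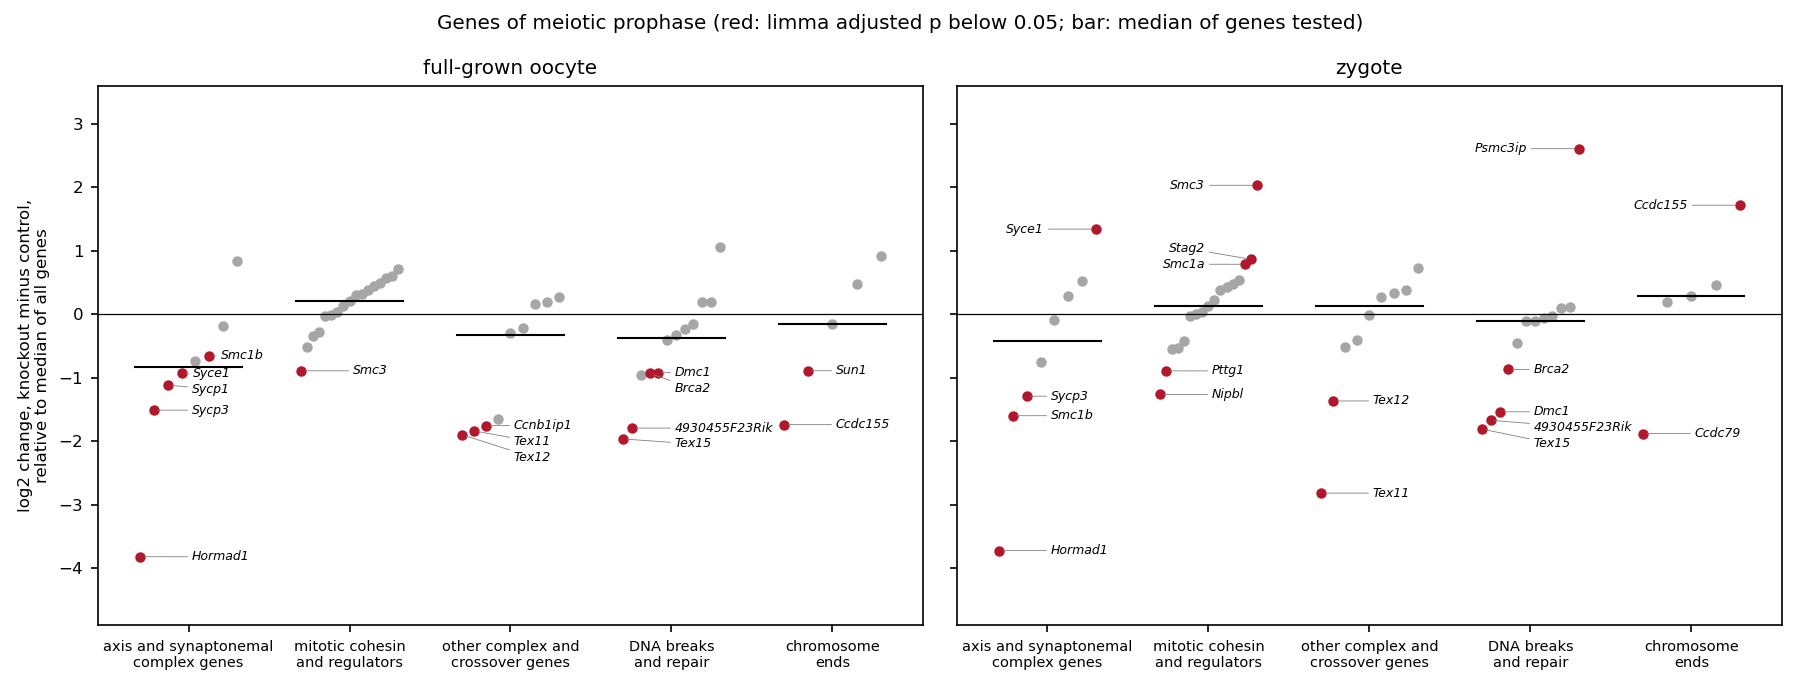
Log2 change, knockout minus control, relative to the median of all genes, for the tested genes of the axis and synaptonemal complex and of 4 further lists in FGO (left) and zygotes (right), with called genes in red and named and a bar at the median of the genes tested (1 gene of the complex and crossover list is not drawn). Called genes in FGO all lie below 0, and in zygotes called genes lie on both sides of 0.

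Over the 12 libraries of FGO, zygotes and 48 h embryos, the genes of the complex did not share one pattern. Sycp1 and Sycp3 followed each other most closely (Pearson r = 0.89), and both ran against Syce2 (r = -0.87 and -0.83). Hormad1 went with Sycp3 (r = 0.79) and Sycp1 (r = 0.77). Among 8214 other genes compared, those most like Hormad1 were Trappc8 (r = 0.92), Pgk1 (0.91), Zfp82 (0.90), Glud1 (0.90) and Cox8a (0.89). Those most like Sycp3 were Son (r = 0.98), Med31, Xylb, Setd2 and Hars (each 0.98), and Setd2 is the targeted gene. These values describe 12 libraries of 6 groups, share their libraries and carry no test.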

How the data were processed

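RNA-seq by Smart-seq2, which does not record strand, was analysed from the FPKM values the authors deposited, in 4 tables of 22592 genes that were normalized separately. Per the submitters' processing notes, the mm9 genome, TopHat2 2.0.11 and Cufflinks 2.0.2 were used, without the role of each. Libraries were grouped by their titles and column names, and none was left out.

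After a log2 transform of FPKM + 1, genes that reached 1 FPKM in 2 or more libraries of their table were fitted with limma 3.58.1 (R 4.3.3) with a mean per group, moderated variances and a trend, in 1 fit for the 12 libraries of FGO, zygotes and 48 h embryos and separate fits for P7 and ST embryos. Two-sided p-values were adjusted by Benjamini-Hochberg over all genes of a contrast. The fits were tested on simulated data. Depth was estimated from the smallest steps of low values in 2722 single-transcript genes and is approximate.

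The genes, lists and tests were chosen with earlier results of these data known. All 10 genes are named, with up to 4 called genes per list by smallest adjusted p, the cohesin paralogs, and the 5 genes most like Hormad1 and Sycp3 by Pearson correlation among genes with a group mean of at least 5 FPKM. Of the 62 listed symbols of the wider lists, 54 were measured and the others were not analysed here. The values of 1 measured gene of these lists are not reported here, though it enters the counts. Gene coordinates are those of GENCODE vM21 on GRCm38 and promoters those of RefSeq on GRCm38.p6, not the build of the expression values. Alternatives were another pseudocount (0.1), no filter, a filter at 5 FPKM, median-ratio scaling, quantile normalization, no variance trend, each comparison's groups alone, a replicate block, and leaving out each library.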

Additional observations from a re-analysis of the deposited data

Results flagged for a closer look

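The knockout effect differed between stages for several genes by the test of the difference itself. Zygotes minus full-grown oocytes, it was 2.28 for Syce1 (log2 units after subtracting the shift of all genes, limma adjusted p = 0.00226). Syce1 was low at both stages, at 2.46 FPKM or less in every library. At 48 h minus zygotes it was -3.55 for Sycp1, -2.93 for Sycp3 and -1.72 for Syce1, and 1.89 for Syce2, 1.68 for Smc1b and 0.93 for Sycp2, with limma adjusted p from 3.12e-05 to 0.00938. The 48 h embryos compare 2-cell controls with 1-cell knockouts, so stage and genotype cannot be told apart there.

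In P7 oocytes the knockout libraries of 4 genes lay on the other side of their controls from where they lay in full-grown oocytes, out of 8 genes tested at both. Of all 9715 genes tested at both, 1122 (11.5%) did so too. The P7 changes were 0.50 for Hormad1, 0.15 for Sycp3, 0.30 for Smc1b and -0.63 for Sycp2. None of these passed limma's test at P7 (adjusted p of at least 0.568), the stages stand in tables normalized separately, and the difference between them was not tested.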

How the results depend on the processing

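Of 394 values of the 33 calls of axis and synaptonemal complex genes under other settings, 363 stayed on the same side of the threshold, 31 lost the call and 0 turned direction, and 17 calls passed under every setting. A further 8, of Syce1 and Smc1b, passed wherever they were tested, but the filter at 5 FPKM left these genes out. Genes not called otherwise gained a call in 16 values. In full-grown oocytes the count of 5 called genes became 3 with a pseudocount of 0.1, 3 with a filter at 5 FPKM (5 genes left to test) and 3 with the replicate block, which lost Syce1 and Smc1b (limma adjusted p = 0.0585 and 0.0638), and ranged from 1 to 2 when 1 library was left out. In zygotes 4 became 2 with the filter at 5 FPKM. For the step from full-grown oocyte to zygote in the knockout, 1 became 0 with that filter, 2 without the variance trend and 2 with the replicate block, and ranged from 0 to 4 when 1 library was left out. For the step from zygote to 48 h in the knockout, 1 became 0 without a filter, 0 with median-ratio scaling and 0 with quantile normalization, and ranged from 0 to 1 when 1 library was left out. The difference between zygotes and full-grown oocytes ranged from 1 to 2. In the Dnmt3l pair 0 became 1 with a pseudocount of 0.1. Except for the smaller set of genes under the filter, the cause was not tested. The Sycp2 difference between 48 h and zygotes lost its call under median-ratio scaling (0.80, limma adjusted p = 0.0938). Deviations of same-numbered libraries correlated at 0.186 across genes in full-grown oocytes and from 0.00244 to 0.0742 at the other stages, so the numbers were not taken as pairs, and the replicate block was used only as an alternative.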
